A study of Mus musculus with 9 samples.

Results

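Spiral ganglion neurons carry sound information from the hair cells of the cochlea to the brainstem. Their axons grow and acquire calibre on a skeleton of microtubules and neurofilaments, and their endings release glutamate through the SNARE machinery. Around birth these neurons are still refining their contacts with hair cells, and growth-associated genes remain active in them.

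The genes described here are 9 that are commonly used to mark these neurons: Tubb3, Stmn2, Gap43, Nefl, Nefm, Nefh, Snap25, Slc17a7 and Gata3. They were found by Ensembl identifier among the 51912 genes listed for each wild-type and heterozygous library. Each homozygous mutant library lists 1137 genes, and Gata3 is the only one of the 9 there, so the other 8 genes have no homozygous value and were not analysed in that genotype. Of the 15391 genes tested between heterozygous and wild-type cochleae, 7.35% were listed in the homozygous libraries.

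The study measured RNA from mouse cochlea at postnatal day 3 in 3 genotypes of Pou4f3, which encodes a POU-domain transcription factor of hair cells. By sample title these are Pou4f3(Δ/Δ) (HOM), Pou4f3(Δ/+) (HET) and Pou4f3(+/+) (WT), with 3 libraries each. The design text calls the wild-type animals littermates of the Pou4f3(Δ/+) mice, and the labels give neither the extent of Δ nor the strain, the sex or any pooling of animals. The genotype field disagrees with the title in all 9 samples: it reads Pou4f3(Δ/+) where the title says Pou4f3(Δ/Δ), Pou4f3(+/+) where it says Pou4f3(Δ/+), and Pou4f3(Δ/Δ) where it says Pou4f3(+/+). Groups follow the titles, and each direction below depends on that. Pou4f3 itself was at 5.92, 1.36 and 9.39 FPKM in HOM 1 to 3, at 24.21, 21.74 and 25.56 FPKM in HET and at 25.02, 24.49 and 26.97 FPKM in WT, so it separates HOM from the others but does not tell HET from WT. FPKM is the count of fragments divided by gene length and by library depth. Since the tissue is bulk, fewer neurons and less RNA per neuron cannot be told apart.

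Depth recovered from the deposited values was 14322333 to 17404454 fragments per library. On the main axis of variation over the 15391 tested genes (58.1% of the variance), HET 1 and WT 3 stood on the side opposite to the remaining 4 libraries. HET 1 and WT 3 were the 2 highest of the 6 libraries for 31.6% of tested genes. This split crosses genotype.

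Promoter sequence was at hand for 3 of the 9 genes in the RefSeq table for GRCm38.p6. Each is shown as the 250 bases before the RefSeq start, read on the strand of the gene. Tubb3 and Slc17a7 varied together across the libraries while Gata3 stayed level, and a link to these sequences was not tested. The Gata3 window lies inside the annotated span of that gene (9857078 to 9890034). The Tubb3 window overlaps that of Tubb3 (123411424 to 123422015). Capitals mark GC boxes (CCGCCC on either strand; adjoining matches may share a base) and the sense TATA element TATAA.
Tubb3 (chr8:123411303-123411552, + strand): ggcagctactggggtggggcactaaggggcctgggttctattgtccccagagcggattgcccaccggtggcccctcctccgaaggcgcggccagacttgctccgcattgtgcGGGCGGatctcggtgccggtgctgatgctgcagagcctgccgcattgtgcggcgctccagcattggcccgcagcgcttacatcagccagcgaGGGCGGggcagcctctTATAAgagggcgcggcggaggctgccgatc
Slc17a7 (chr7:45163671-45163920, + strand): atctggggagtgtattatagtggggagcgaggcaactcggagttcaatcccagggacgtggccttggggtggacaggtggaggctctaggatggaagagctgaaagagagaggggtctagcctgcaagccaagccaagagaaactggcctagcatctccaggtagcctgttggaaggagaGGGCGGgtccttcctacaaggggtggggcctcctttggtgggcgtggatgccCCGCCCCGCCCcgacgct
Gata3 (chr2:9878601-9878850, - strand): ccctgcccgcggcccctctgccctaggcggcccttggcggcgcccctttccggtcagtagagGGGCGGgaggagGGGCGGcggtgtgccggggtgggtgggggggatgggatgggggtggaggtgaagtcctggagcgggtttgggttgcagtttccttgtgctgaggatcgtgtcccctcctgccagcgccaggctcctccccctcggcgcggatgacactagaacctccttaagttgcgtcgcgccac

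The Tubb3 window held 2 GC boxes and a TATA element starting 30 bases before the start. Slc17a7 held 3 GC boxes and Gata3 held 2, and neither held TATAA on the sense strand. Among 32851 promoters of the same length, 32.7% held a GC box and 16.0% held TATAA. The GC content was 68.0% for Tubb3, 61.2% for Slc17a7 and 70.0% for Gata3, against a median of 52.4% over all promoters.

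The 9 genes spanned a wide range of levels per length. In WT cochleae Gata3 averaged 86.0 ± 0.862 FPKM (SD, n = 3), Nefm 23.9 ± 6.48, Nefl 17.2 ± 7.54, Gap43 14.1 ± 3.41, Tubb3 14.1 ± 7.50, Stmn2 10.01 ± 4.41, Nefh 7.06 ± 3.75, Snap25 3.52 ± 1.41 and Slc17a7 1.21 ± 0.681 FPKM. Gata3 lay above every other gene in each library. From Nefm down to Nefh, each gene differed from its neighbour in this order by less than the SD of either, except Nefm and Nefl, whose gap was smaller than the SD of Nefl alone. Snap25 and Slc17a7 lay below the other genes in each library. The HET order was the same at the top, with Gata3 at 84.2 ± 2.23, Nefm at 24.3 ± 2.38 and Nefl at 19.3 ± 4.30 FPKM.

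The comparison of HET with WT asks what carrying 1 Δ allele of Pou4f3 changes in the cochlea, here in its neuronal genes. None of the 9 genes was called, meaning an adjusted p under 0.05: 0 rose and 0 fell by limma, against 0.0% of the 15391 genes tested, and 0 had an unadjusted p under 0.05, against 1.73% (266 genes) of all. That count rests on HET 1: without it 1833 of 15151 tested genes (12.1%) had an unadjusted p under 0.05, and without HET 1 and WT 3 together 2356 of 14844 (15.9%), with 0 called by adjusted p in either. Of the 9 genes only Gap43 had such a p there, at a change of -0.50 (unadjusted p = 0.0347, limma adjusted p = 0.398) without HET 1 and -0.32 (unadjusted p = 0.00990, limma adjusted p = 0.219) without both. Their median change was -0.03 on the log2(FPKM + 1) scale, with 4 higher and 5 lower in sign, beside a median of 0.001 over all genes tested. The HET and WT libraries overlapped for each of the 9 genes, whereas 5.94% of tested genes had groups that did not overlap. Neuronal levels differed more between libraries of the same genotype than between genotypes, as the values by gene show.

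**Figure D1:**
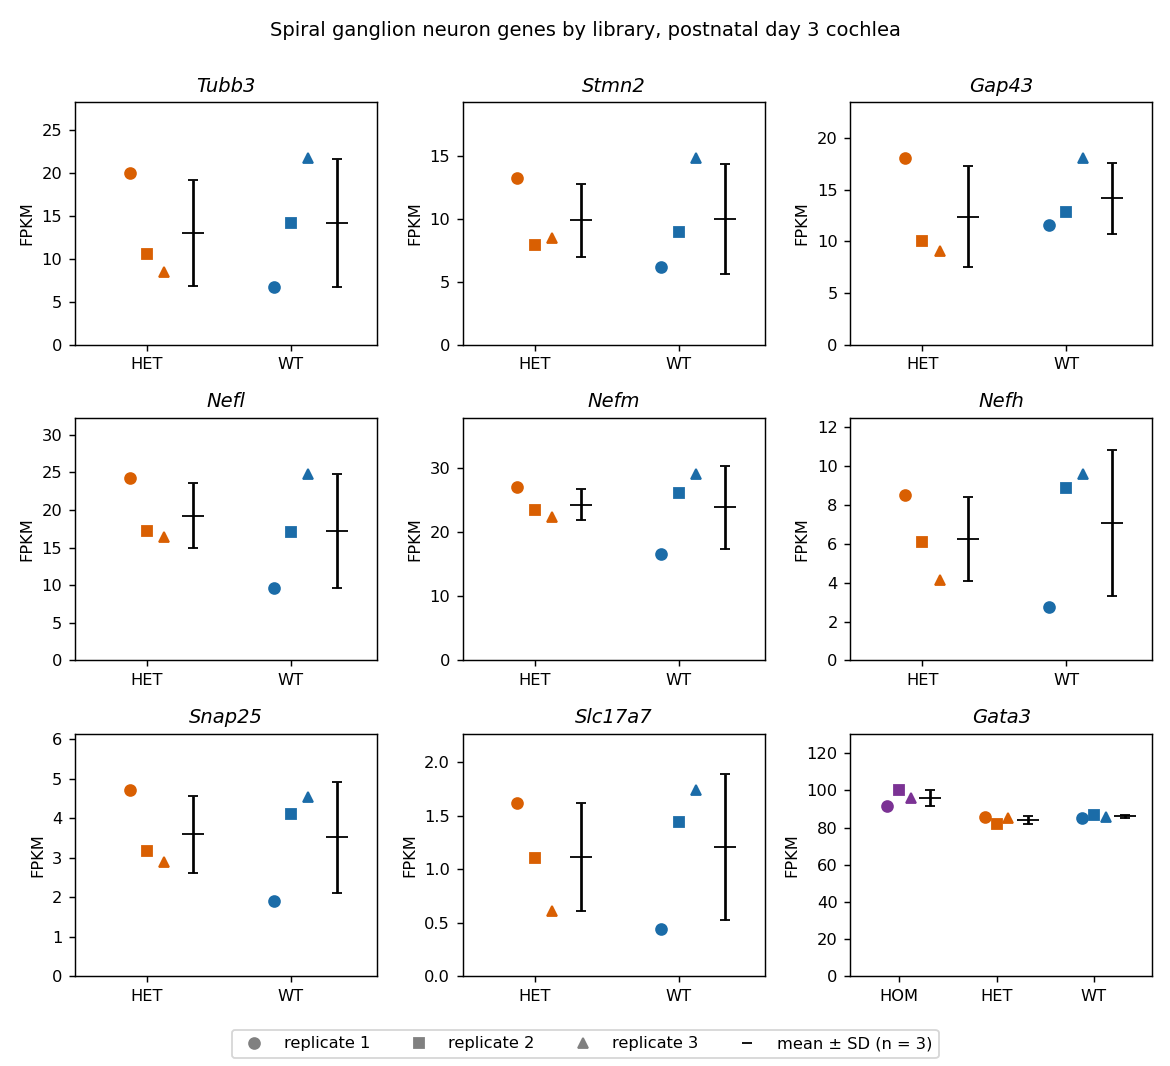
FPKM of each of the 9 genes (vertical axes from 0, a separate scale for each gene) in every library, by genotype; symbols mark the replicate and bars the mean ± SD (n = 3). HET 1 and WT 3 sit high and WT 1 sits low for most genes, while Gata3 is level in HET and WT and higher in HOM.

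Tubb3, a tubulin of neuronal microtubules (chromosome 8, 123411424 to 123422015, + strand in GENCODE M21 on GRCm38), was at 19.97, 10.55 and 8.44 FPKM in HET 1 to 3 and at 6.67, 14.08 and 21.66 FPKM in WT 1 to 3. The lowest and highest libraries of the 6 were thus both WT, 3.25-fold apart, and the HET values fell between them. The change was -0.07 (95% interval -1.15 to 1.02, limma adjusted p = 1.00, two-sided exact permutation p = 0.9). No gene of the 9 had a wider interval.

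Stmn2, which binds tubulin in growing axons (chromosome 3, 8509360 to 8561606, + strand), was at 13.23, 7.93 and 8.50 FPKM in HET and at 6.19, 9.0 and 14.84 FPKM in WT. Gap43, a protein of the growth cone (chromosome 16, 42248442 to 42340651, - strand), was at 18.02, 10.03 and 9.08 FPKM in HET and at 11.57, 12.85 and 18.01 FPKM in WT. HET 1 and WT 3 were the highest for both genes, and for Gap43 they differed by 0.01 FPKM. Gap43 was the only 1 of the 8 genes other than Gata3 that was not lowest in WT 1. The changes were 0.03 for Stmn2 (interval -0.72 to 0.78) and -0.22 for Gap43 (-0.87 to 0.44), neither called.

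The neurofilament genes encode the light (Nefl), medium (Nefm) and heavy (Nefh) subunits of the axonal intermediate filament. Nefl was at 24.21, 17.22 and 16.38 FPKM in HET and at 9.70, 17.10 and 24.78 FPKM in WT. Nefm was at 26.95, 23.47 and 22.40 FPKM in HET and at 16.59, 26.00 and 29.02 FPKM in WT. The narrowest spread of the triplet was that of Nefm, 1.75-fold from the lowest library to the highest, against 2.55-fold for Nefl. Nefh, on chromosome 11 (4938754 to 4948064, - strand), was at 8.50, 6.09 and 4.14 FPKM in HET and at 2.75, 8.84 and 9.58 FPKM in WT, a 3.48-fold span, with WT 2 and WT 3 above each HET library.

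The changes were 0.23 for Nefl (interval -0.55 to 1.00), 0.06 for Nefm (-0.43 to 0.54) and -0.06 for Nefh (-1.09 to 0.98), none called. Nefl (chromosome 14, 68083863 to 68089095, + strand) lies inside the annotated span of Nefm (68082590 to 68124846, - strand), and 1108 exonic bases are shared in GENCODE M21, which is 32.8% of the exons of Nefl and 19.2% of those of Nefm. Since no source used here states that strand was used in counting, fragments from those bases cannot be assigned to either gene, and both levels are uncertain to that extent.

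Subunit proportions also varied more within than between genotypes. The ratio of Nefh to Nefm, per length, was 0.315, 0.259 and 0.185 in HET 1 to 3 and 0.166, 0.340 and 0.330 in WT 1 to 3. These gave means of 0.253 ± 0.0655 in HET and 0.279 ± 0.0979 in WT (SD, n = 3 each; exact permutation p = 0.7). The ratio of Nefl to Nefm was 0.788 ± 0.0958 in HET and 0.699 ± 0.139 in WT (exact permutation p = 0.4). WT 1, with the lowest level of all 3 subunits, also had the lowest value of both ratios.

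Snap25 encodes a SNARE of vesicle fusion that is also made by hair cells (chromosome 2, 136713453 to 136782428, + strand). It was at 4.72, 3.16 and 2.90 FPKM in HET and at 1.91, 4.10 and 4.54 FPKM in WT, with a change of 0.06 (interval -0.60 to 0.72). Slc17a7, the vesicular glutamate transporter VGLUT1 (chromosome 7, 45163949 to 45176142, + strand), was at 1.62, 1.1 and 0.61 FPKM in HET and at 0.44, 1.44 and 1.74 FPKM in WT, with a change of -0.04 (interval -0.75 to 0.67). For Slc17a7 the order of the libraries was that of Nefl apart from WT 2 and HET 2, which changed places. Slc17a7 rested on 40 to 143 recovered fragments per library. Its counting interval was 0.311 to 0.593 FPKM in WT 1 and 1.47 to 2.05 FPKM in WT 3, so the difference between these libraries exceeds counting error, while the other genes rested on at least 187 fragments.

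**Figure D2:**
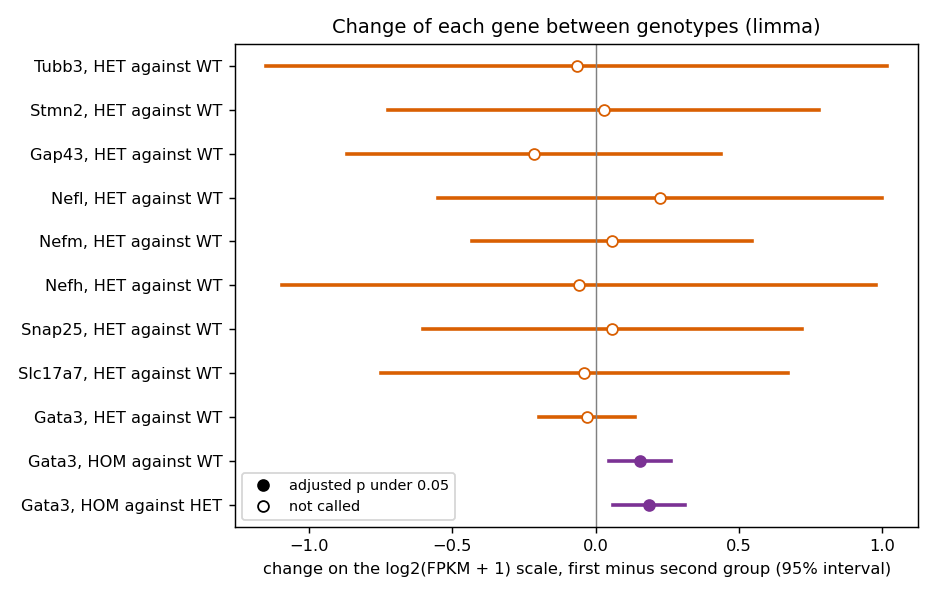
Change of each gene between genotypes (horizontal axis, log2(FPKM + 1), first group minus second) with limma's 95% interval; filled points passed an adjusted p of 0.05. All 9 HET against WT intervals include 0, the narrowest being that of Gata3 (-0.20 to 0.14), and Gata3 lies above 0 in both HOM comparisons.

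The intervals bound what these libraries could show. For Tubb3 they allow HET levels between 0.451 and 2.02 times WT on the log2(FPKM + 1) scale, and for Nefm between 0.741 and 1.46 times. Without 1 library, 7 of the 9 changes turned sign: Tubb3 ranged from -0.49 to 0.29, Nefh from -0.54 to 0.21 and Nefl from -0.11 to 0.52, and none was called. Without HET 1 and WT 3 together, 0 of the 8 genes that could be tested turned sign and 0 were called; Slc17a7 did not reach the minimum there.

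The 8 genes other than Gata3 varied together across libraries. Their summed level was 117, 79.6 and 72.5 FPKM in HET 1 to 3 and 55.8, 93.4 and 124 FPKM in WT 1 to 3, a 2.22-fold span, with means of 89.7 ± 24.1 in HET and 91.1 ± 34.2 in WT (SD, n = 3 each). HET 1 and WT 3 were the 2 highest libraries for 7 of these 8 genes, where 31.6% of all tested genes have that order. WT 1 was the lowest for 7 of 8, against 17.5% of tested genes, and WT 3 the highest for 6 of 8, against 22.4%. All 8 genes were read in 1 set of 6 libraries, so these counts only describe those libraries.

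**Figure D3:**
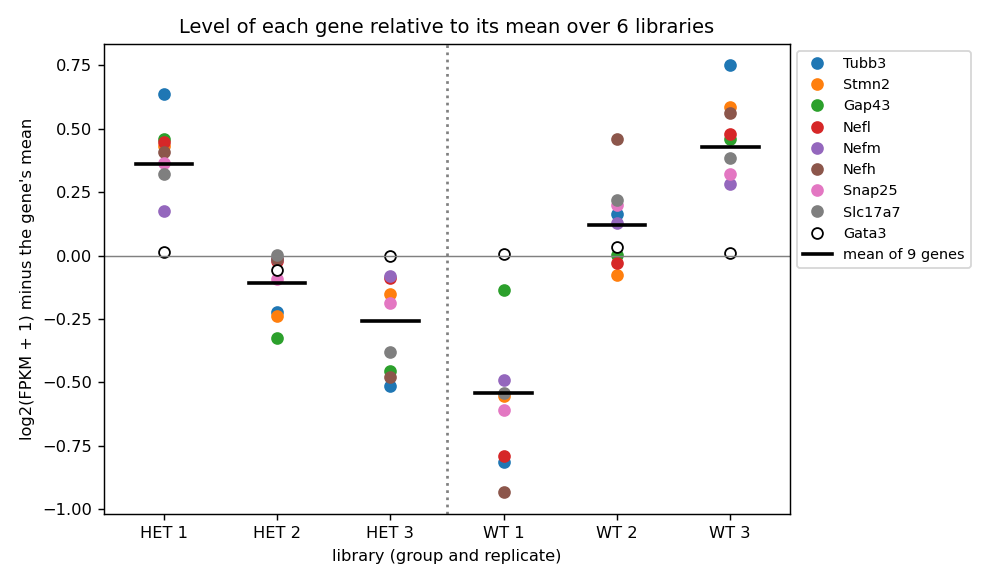
log2(FPKM + 1) of each gene minus its mean over the 6 HET and WT libraries (vertical axis), by library; the bar is the mean of the 9 genes. The mean is 0.36 in HET 1, 0.43 in WT 3 and -0.54 in WT 1, and the open points of Gata3 span 0.09.

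The span of these 8 genes was large for this tissue. From the lowest library to the highest they moved by 0.77 (Nefm) to 1.56 (Tubb3) on the log2(FPKM + 1) scale, wider than 85.6% and 96.9% of all tested genes. The median span of the 8 was 1.06, beside 0.40 over all genes tested. Gata3 was the opposite, with a span of 0.09 that only 0.812% of tested genes undercut.

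Their proportions to each other were steadier than their levels. Each share is taken over a sum that includes the gene itself and genes that varied with it. A narrower span of shares is thus partly built in, and the shares are a description only. As shares of the summed level of the 8 genes, Stmn2 made up 11.0% ± 0.917 in HET and 10.9% ± 1.17 in WT, and Snap25 4.0% ± 0.0272 in HET and 3.82% ± 0.505 in WT (SD, n = 3 each). Across the 6 libraries the share of Stmn2 moved 1.24-fold, the least of the 8, while its level moved 2.40-fold. The shares of Slc17a7 and Nefh moved most, 1.96-fold and 1.92-fold, against 3.95-fold and 3.48-fold for their levels. For Gap43 the share moved 1.65-fold and the level 1.98-fold. Tubb3 and Nefm shifted against each other: Tubb3 held 17.04% and Nefm 22.99% in HET 1, against 11.9% and 29.7% in WT 1. Gap43 held 20.7% in WT 1 and between 12.5% and 15.4% in the other libraries. The Nefl share was 21.6% ± 0.978 in HET and 18.5% ± 1.31 in WT without overlap, at an exact permutation p of 0.1, the smallest that 3 against 3 libraries allow (0.8 adjusted over the 8 shares).

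Gata3 encodes a zinc finger transcription factor needed for spiral ganglion development, and the cochlear epithelium expresses it too. It was at 91.49, 100.28 and 96.16 FPKM in HOM, at 85.92, 81.66 and 84.95 FPKM in HET and at 85.38, 87.00 and 85.68 FPKM in WT. Each HOM library lay above each HET and WT library, while HET and WT overlapped. The means were 96.0 ± 4.398 in HOM, 84.2 ± 2.23 in HET and 86.0 ± 0.862 in WT (SD, n = 3 each).

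The mean of Gata3 in HOM was 111.6% of that in WT, a change of 0.16 (SE 0.04, limma adjusted p = 0.0196). It was called higher, as were 27.7% of the 1109 listed genes tested, and 65.4% were called lower. All 1109 genes had HOM and WT values that did not overlap (HOM above WT in 30.9%), so the listing already follows that contrast and the call is a description only. Gata3 sat low among the listed genes that were higher in HOM: 82.5% of the 343 had a larger ratio, with a median of 1.20 and a lowest ratio of 1.03. Leaving out WT 1 ended the call (adjusted p = 0.0575), and with each of the other libraries left out the adjusted p lay between 0.0213 and 0.04999.

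Against HET, Gata3 in HOM changed by 0.19 (SE 0.05, limma adjusted p = 0.0303), a direction called in 8.17% of the 1090 listed genes tested, with 36.3% called lower. HOM lay wholly above HET for 15.7% of these genes. The comparison shares its HOM libraries with the previous one. Of the 6 libraries, leaving out HOM 2 (adjusted p = 0.0786), HOM 3 (0.0794), HET 2 (0.1004) or HET 3 (0.0865) ended the call, and leaving out HOM 1 (0.0430) or HET 1 (0.0375) did not. With the replicate block the adjusted p was 0.110. The median of the listed genes was -0.22 in HOM against WT and -0.16 against HET, opposite in sign to the change of Gata3. Scaling the libraries by these genes brought that median to -0.03 and -0.03 (WT) and -0.02 and 0.04 (HET) by median ratio and upper quartile. The Gata3 change was then 0.37 and 0.39 against WT, and 0.35 and 0.42 against HET. Of the 1137 listed genes 794 were lower and 343 higher in HOM than in WT. Scaling by such a set raises the HOM values by construction, so the scaled changes are a description only.

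The gene model of Gata3 (chromosome 2, 9857078 to 9890034, - strand) shares 3.9% of its exonic bases with an antisense transcript, Gm13256, at a mean of 1.62 FPKM over the 6 HET and WT libraries. It shares 1.94% with 9230102O04Rik on the same strand, at 12.9 FPKM. Both levels are below that of Gata3, which was at 81.66 FPKM or more.

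Other neuronal genes were read from 5 lists. Of 50 genes tested in them, 0 rose and 0 fell in HET against WT, with 26 higher and 24 lower in sign and a median of 0.006, beside 0.001 over all genes tested. HET 1 and WT 3 were the 2 highest libraries for 21 of the 50 (42.0%, against 31.6% of all tested genes), and WT 1 was the lowest for 20 (40.0%, against 17.5%).

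The cytoskeleton and axon growth list had 11 of 13 genes tested, with a median change of 0.006 and sums of 309, 223 and 230 FPKM in HET 1 to 3 and 217, 249.3 and 290 FPKM in WT 1 to 3. Stmn3, a relative of Stmn2, was at 33.91, 15.48 and 13.53 FPKM in HET and at 7.76, 18.49 and 38.58 FPKM in WT. Ina, a neurofilament partner, was at 11.89, 4.82 and 5.50 FPKM in HET and at 2.92, 8.18 and 12.38 FPKM in WT. Both genes, named here after their values were seen, thus had the library order of Tubb3 at its ends. Map1b, a microtubule-associated protein, had a change of 0.14 and was at 14.6 FPKM in HET 1 and 14.71 FPKM in WT 3, under the 17.86 to 20.07 FPKM of HET 2, HET 3 and WT 2. Neuronal cytoskeletal genes were therefore not uniform in this pattern.

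Doublecortin, Dcx, a microtubule protein of migrating and immature neurons, was the only gene of that list with HOM values, at 2.29, 2.48 and 2.11 FPKM in HOM, 1.54, 1.62 and 1.57 FPKM in HET and 1.1, 1.45 and 1.46 FPKM in WT. The HOM libraries lay above the others, and HET lay above WT, a separation in either direction that 5.94% of tested genes had. Dcx was 0.50 higher in HOM against WT (SE 0.09, limma adjusted p = 0.00619) and 0.35 higher against HET (SE 0.08, adjusted p = 0.0158), a call lost without HET 2 (0.0540), without HET 3 (0.0651) and with the replicate block (0.0586). HET and WT differed by 0.14, which was not called (limma adjusted p = 1.00).

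The transmitter release list had 16 of 19 genes tested and a median of -0.03; it summed to 154 to 184 FPKM in HET and 145 to 193 FPKM in WT. Pclo, a scaffold of the active zone, differed by 0.35 and Cplx2, a complexin that binds SNAREs, by -0.13, the smallest unadjusted p values of the list (0.176 and 0.182). The vesicle calcium sensor Syt1 was at 24.6 ± 1.98 FPKM in HET and 25.2 ± 1.26 FPKM in WT (SD, n = 3 each), a level that did not follow the 8 genes. VGLUT2, encoded by Slc17a6, was present at a similar level to VGLUT1: the ratio of Slc17a7 to Slc17a6 was 1.007 ± 0.324 in HET and 1.19 ± 0.366 in WT. The ratio of Slc17a8, the VGLUT3 gene of inner hair cells, to Slc17a7 was 1.99, 3.78 and 6.85 in HET and 7.93, 2.35 and 1.41 in WT, lowest in WT 3 and HET 1. Slc17a8 itself stayed between 2.46 and 4.18 FPKM in these libraries.

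Among transcription and RNA-binding factors 7 of 14 genes were tested, with a median of 0.08 and sums of 149 to 155 FPKM in HET and 153 to 160 FPKM in WT. Isl1 and Gata2 held most of these sums. Gene by gene, the median span of the 7 was 0.55 on the log2(FPKM + 1) scale, beside 0.40 over all genes tested. WT 1 was the lowest library for 4 of the 7 (57.1%, against 17.5% of tested genes). HET 1 and WT 3 were the 2 highest for 3 of them (42.9%, against 31.6%). Neurog1, which starts the neuronal programme in the embryo, was listed at 0 in all 6 HET and WT libraries, and Neurod1 was at most 0.24 FPKM. Rbfox3, the NeuN antigen, differed by 0.23 and Gata2 by -0.10 in HET against WT, neither called. Isl1, a LIM homeodomain factor of spiral ganglion neurons and of the sensory epithelium, was at 96.82, 94.60 and 90.01 FPKM in HOM, 76.55, 84.94 and 85.96 FPKM in HET and 86.90, 84.35 and 83.12 FPKM in WT. Gata2, a relative of Gata3, was at 53.16, 70.21 and 64.03 FPKM in HOM, 42.27 to 43.73 FPKM in HET and 43.55 to 48.99 FPKM in WT.

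Isl1 was called in HOM against WT (0.14, SE 0.04, limma adjusted p = 0.0211), a call lost without HOM 1, WT 2 or WT 3 (0.0579 to 0.0624), and not against HET (0.18, adjusted p = 0.0504). Scaling by the listed genes (median ratio, then upper quartile) gave Isl1 changes of 0.36 and 0.38 against WT, and of 0.35 and 0.42 against HET (limma adjusted p = 0.00676 and 0.00558). Gata2 was called in both, at 0.42 against WT (SE 0.10, adjusted p = 0.0151) and 0.51 against HET (SE 0.10, adjusted p = 0.0108), and the call against HET was lost without HET 2 or HET 3 (0.0531 and 0.0528). The same scalings gave Gata2 changes of 0.63 and 0.65 against WT. Most listed genes were lower in HOM than in WT (794 of 1137), so scaling by them raises the HOM values by construction. The scaled changes and p values are therefore a description only. Like Gata3, Isl1, Gata2 and Dcx belong to the listed genes, all of which separate HOM from WT.

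The subtype and receptor list had 9 of 13 genes tested, with sums of 161 to 192 FPKM in HET and 164 to 201 FPKM in WT. Calb1 and Calb2 held most of these sums, and which cells expressed them was not tested. Calb2, the calcium buffer calretinin of a subset of type I neurons, had the smallest p of the list (0.0960). It was at 53.66, 30.23 and 32.14 FPKM in HET and at 41.66, 53.92 and 71.15 FPKM in WT, a change of -0.53 with overlapping groups. Calb1, calbindin, differed by 0.14. Prph, a type II marker that belongs to the cytoskeleton and axon growth list instead, did not pass the minimum for testing. It was at 1.87, 0.74 and 0.48 FPKM in HET and at 0.22, 0.59 and 1.49 FPKM in WT. In the list of ion channels and nodes, 7 of 13 genes were tested and the sums were 19.8 to 22.4 FPKM in HET and 21.1 to 24.2 FPKM in WT, with Kcna1 at -0.32 and Ank3, ankyrin-G of nodes and initial segments, at -0.06. There HET 1 and WT 3 were the 2 highest libraries for 1 of 7 genes.

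Glia of the ganglion and nerve shared part of the order. The 15 Schwann cell and satellite glia genes summed to 854, 507 and 465 FPKM in HET 1 to 3 and to 576, 620 and 783 FPKM in WT 1 to 3, and HET 1 and WT 3 were the 2 highest libraries for 12 of them. WT 1 was the lowest for 1 of 15, against 7 of the 8 neuronal genes. Of the 15, 13 were lower in sign in HET, with a median of -0.28, and 0 were called. The myelination factors Egr2 (-0.42) and Pou3f1 (-0.34) had the smallest unadjusted p values, 0.123 and 0.151. The part of glial or neuronal tissue carried along in each dissection was not tested.

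**Figure D4:**
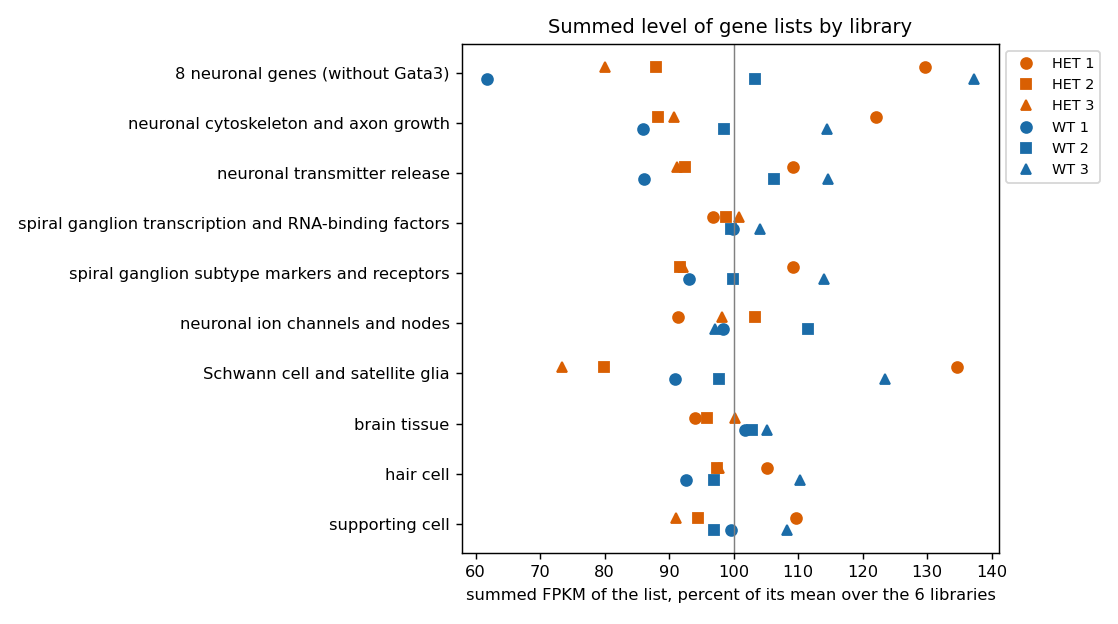
Summed FPKM of the 8 genes and of 9 lists (5 neuronal, glial, brain, hair cell and supporting cell) in each HET and WT library, as a percentage of the list's mean over the 6 libraries (horizontal axis); colour marks genotype and symbol the replicate. Of these 10 rows the sums of the 8 genes and of the glial list spread most, with HET 1 and WT 3 at the right. The brain and transcription factor sums spread least. The median span of the tested genes in those 2 lists was 0.56 and 0.55 (log2(FPKM + 1)), beside 0.40 over all genes tested.

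HET 1 and WT 3 also had the 2 highest sums for the hair cell, supporting cell, erythroid and macrophage lists, but not for the brain, bone and muscle lists. Gene by gene, HET 1 and WT 3 were the 2 highest for 3 of the 12 hair cell genes, against 31.6% of all tested genes. The counts were 4 of 9 supporting cell, 2 of 5 erythroid and 2 of 4 macrophage genes. WT 1 had the lowest sum for the hair cell and muscle lists, and was lowest for 4 of the 12 hair cell genes. Pvalb of the hair cell list was at 51.72, 35.32 and 28.85 FPKM in HET and at 26.75, 39.04 and 53.53 FPKM in WT. It was thus highest in WT 3 and HET 1 and lowest in WT 1, like the hair cell sum. The brain list, whose HET sums lay below its WT sums, summed to 79.7 to 85.0 FPKM in HET and 86.3 to 89.1 FPKM in WT. Zic2 was the largest part of these sums, at 35.81 to 39.30 FPKM in HET and 42.60 to 44.12 FPKM in WT. Of the 6 brain genes tested it was the only 1 whose groups did not overlap (16.7%, against 5.94% of all tested genes). In sign 3 were higher and 3 lower, with a median change of -0.001. Of the defining genes of the brain list, Slc32a1 was at 0 in all 6 libraries, and Olig1, Olig2 and Neurod6 were between 0 and 0.18 FPKM. Zic2 (-0.21, unadjusted p = 0.0213) and Cbln1 (0.27) had its smallest p values. Hair cell genes summed to 269.5, 249.65 and 250.4 FPKM in HET 1 to 3 and to 237, 248.5 and 283 FPKM in WT 1 to 3, and Ocm (0.43) and Lhfpl5 (-0.32) had the smallest p values. Supporting cell genes summed to 1285, 1108 and 1068 FPKM in HET and to 1166, 1135 and 1269 FPKM in WT, with Lfng at -0.12 and Prox1 at 0.17. Muscle genes stayed between 1.59 and 2.56 FPKM in sum (Mylpf at -0.02). Erythroid genes summed to 145, 63.6 and 109 FPKM in HET 1 to 3 and to 110, 130 and 171 FPKM in WT 1 to 3 (Hbb-bs at -0.46, Alas2 at -0.19). Bone genes summed to 24.9 to 30.7 FPKM in HET and 28.2 to 48.3 FPKM in WT (Acp5 at -1.10, Ibsp at -0.68), and macrophage genes to 19.7, 19.2 and 15.02 FPKM in HET and 18.6, 18.3 and 21.4 FPKM in WT (Csf1r at -0.14, C1qa at -0.13). The erythroid sums spanned more than those of the 8 neuronal genes, lowest in HET 2 and highest in WT 3. None of these genes was called in HET against WT, and their part in the neuronal values was not tested.

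The genes whose pattern over the 6 HET and WT libraries was closest to the mean pattern of the 9 genes were Lgals4, Scrt1, Islr2, Ndrg4 and Aldh1a3. Closeness was the root mean square difference of centred log2(FPKM + 1), which was 0.0460 to 0.0667 for these 5 genes. Lgals4 encodes a galectin, Scrt1 a zinc finger repressor of neurons and Islr2 a membrane protein of growing axons. Scrt1 was at 2.44, 1.45 and 1.22 FPKM in HET and at 0.95, 2.11 and 2.84 FPKM in WT, and Islr2 at 3.69, 2.16 and 1.97 FPKM in HET and at 1.28, 2.90 and 4.0 FPKM in WT. Lgals4 was at 11.88, 8.14 and 7.45 FPKM in HET and at 6.29, 9.40 and 12.19 FPKM in WT. Each of the 5 was highest in WT 3 and HET 1 and lowest in WT 1, an order that follows from how they were chosen. Among the 9 genes Snap25 (0.0681) and Slc17a7 (0.0817) were nearest to their common mean, with 0.0325% and 0.0975% of tested genes closer. Gata3 (0.334) was farthest, with 46.3% closer. Each of the 9 is part of that mean, so these distances are a description only.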

How the data were processed

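The deposited files give FPKM per gene, per the file headers, with 2 decimals. The submitters' processing notes name the build mm8; how reads were aligned, counted and assigned to strands is not stated there or in the labels. Libraries were made from poly(A)-selected or rRNA-depleted RNA with random primers, per the labels' protocols.

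Of 51912 identifiers, 51633 had a symbol in GENCODE M21 (GRCm38), the source of gene coordinates and exon lengths. The HOM files list 1137 genes and leave the other lines blank. Depth was recovered as the step making low values of genes with up to 600 bp of exon whole fragments; 99.4% to 100.0% were whole within 0.1, over 19 to 25 values per HOM library and at least 2077 per HET or WT library. Counting intervals (95%, exact Poisson) cover counting error only.

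limma 3.58.1 (R 4.3.3, mean-variance trend) was fitted on log2(FPKM + 1) to the 2 groups compared, keeping genes that reached 1 FPKM in 3 or more of the 6 libraries, with Benjamini-Hochberg adjustment over all tested genes and a threshold of 0.05; fold changes on this scale understate the change of low genes. Single values had two-sided exact permutation tests (smallest p 0.1). Nothing states that libraries came from separate animals, so p values measure the spread between libraries.

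Members and lists were chosen with earlier results of these data known. Named genes were the 9 members, Pou4f3, the 2 smallest p values in HET against WT per list, neuronal list genes called anywhere, and the 5 closest patterns; others are named as examples chosen after their values were seen. Alternatives were pseudocounts of 0.5 and 0.1, no minimum, a minimum of 5 FPKM, median-ratio and upper-quartile scaling, no trend, a replicate block and libraries left out.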

Additional observations from a re-analysis of the deposited data

How the results depend on the processing

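The 9 genes kept their sign and stayed uncalled in HET against WT under each pseudocount, minimum, scaling, trend and block setting in which they could be tested, and 8 of them, without Slc17a7, also with HET 1 and WT 3 left out together. With 1 library left out, changes on the log2(FPKM + 1) scale ranged from -0.49 to 0.29 for Tubb3, -0.11 to 0.52 for Nefl, -0.18 to 0.21 for Nefm, -0.54 to 0.21 for Nefh, -0.23 to 0.23 for Snap25, -0.24 to 0.33 for Stmn2 and -0.32 to 0.14 for Slc17a7, and kept their sign for Gap43 (-0.50 to -0.04) and Gata3 (-0.05 to -0.01). Other changes that turned sign ranged from -0.15 to 0.021 (Ank3), -0.14 to 0.10 (Mylpf), -0.25 to 0.045 (C1qa), -0.071 to 0.011 (Isl1), -0.23 to 0.20 (Lgals4), -0.38 to 0.11 (Scrt1), -0.32 to 0.24 (Islr2), -0.36 to 0.18 (Ndrg4) and -0.31 to 0.24 (Aldh1a3). Without HET 1 and WT 3 together, Lgals4 (0.01), Islr2 (0.04) and Ndrg4 (0.03) turned sign, as did Islr2 with pseudocounts of 0.5 (0.0052) and 0.1 (0.021). Zic2 in HOM against WT, -0.12 as deposited, was 0.092 with median-ratio scaling and 0.11 with upper-quartile scaling. These scalings use the listed genes, of which 794 of 1137 were lower in HOM than in WT. The cause of these turns of sign was not tested.

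In HET against WT, limma called 0 genes, with 266 at an unadjusted p under 0.05, and 0 to 1 with 1 library left out. The unadjusted count was 1833 without HET 1, 2356 without HET 1 and WT 3 together and 167 to 316 without any other single library. HOM against WT called 1032 genes, 632 with a minimum of 5 FPKM (fewer genes tested), 639 under median-ratio scaling (354 higher, 285 lower, against 307 and 725), 638 under upper-quartile scaling (353 and 285) and 588 to 864 with 1 library left out, lowest without WT 1. HOM against HET called 485 genes (89 higher, 396 lower), 272 with a minimum of 5 FPKM, 304 with the replicate block, 516 under median-ratio scaling (257 and 259), 529 under upper-quartile scaling (306 and 223) and 116 to 431 with 1 library left out; it was 142 without HET 2 and 116 without HET 3.

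Whether replicate numbers pair the HET and WT libraries was not settled. Across genes, deviations of libraries with the same number correlated at -0.52, 0.29 and -0.47. HET 1 and WT 3, on the same side of the main axis, correlated at 0.64, so these values cannot decide on pairing. The block called 0 genes, as did the fit without it. Same-number correlations were 0.25, 0.094 and 0.28 in HOM against WT. They were -0.27, 0.11 and -0.13 in HOM against HET. Of the 9 genes, Slc17a7 had the fewest recovered fragments.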
